A study of Mus musculus with 12 samples.

Results

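Both sets of siRNAs against the same pair of genes, Dmrt3 and Dmrta2, were compared directly with each other. The comparison used 6 of the 12 arrays of the study: the 3 arrays labelled set 2 against the 3 arrays labelled set 1, with the control arrays left out of the difference. All embryos were CD-1 mice, and no mutant allele was involved. The siRNAs were electroporated into the medial telencephalon at embryonic stage E11.5 together with a vector for nuclear EGFP, and GFP-positive cells were sorted 24 hours later, at E12.5. A group of 3 arrays with control siRNAs, treated in the same way, is shown beside both sets. Another 3 arrays, in which Dmrta2 was overexpressed from a plasmid, entered the estimate of the spread and the filter and choice of probes. Each group had 3 independent replicates, and how many embryos went into a replicate is not given in the sources used here. The siRNA sequences and the number of siRNAs in a set are not given there either, so no siRNA sequence is printed.

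Dmrt3 and Dmrta2 encode DNA-binding proteins with a DM domain that are made in progenitors of the dorsomedial telencephalon, the region that gives rise to the hippocampus and the cortical hem. An siRNA guides Argonaute proteins to messenger RNAs that it matches, and it can also lower messenger RNAs that match its seed only in part. Different siRNA sets against the same genes should share their effect on the targets, while effects through other messenger RNAs depend on each siRNA's own sequence, which is why a study uses more than 1 set.

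Levels are given as log2 of an array's spot signal minus that array's 75th percentile, so 0 is the 75th percentile and each step of 1 is a doubling, and they are not compared between genes. The 3 arrays of a set lay on 3 slides, 1 replicate number to a slide, and a slide held 1 array of each group. Within-slide differences are set 2 minus set 1. The set 1 arrays always lay at 1 position on the slide and the set 2 arrays at another, so position and set cannot be told apart. Of the 6 siRNA arrays, set 1 of slide 2 was the brightest, with a 75th percentile of 1142.69, and the others had 572.79 to 858.84. Well above background were 68.9% to 72.2% of an array's spots. Arrays of a set correlated at 0.979 to 0.991 with each other over all genes, and set 1 and set 2 arrays of a slide at 0.987 to 0.991. The 8 markers of telencephalic progenitors were well above background on all 6 siRNA arrays, and their median difference between the sets was -0.06.

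The targets are given first. Against the controls Dmrt3 passed the threshold in set 1 (-1.01, adjusted p = 0.041 in limma) and missed it in set 2 (-0.79, adjusted p = 0.0505). Dmrta2 passed in neither, with -0.61 in set 1 (adjusted p = 0.108) and -0.31 in set 2 (adjusted p = 0.283). Dmrt3 had levels of -1.13, -0.13 and -0.72 in set 1 on slides 1, 2 and 3, of -0.81, -0.04 and -0.47 in set 2, and of 0.06, 0.33 and 0.68 in the controls. All 6 siRNA arrays lay below the 3 control arrays, and the sets overlapped. Set 2 minus set 1 was 0.22 (95% interval -0.16 to 0.60, limma adjusted p = 0.572), and an exact two-sided permutation test over the 20 possible groupings gave p = 0.6, where 0.1 is the smallest p it can give. The exact test took the arrays as unpaired and did not use the slide.

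Dmrta2 had levels of 2.14, 1.84 and 1.89 in set 1, of 2.41, 2.44 and 1.92 in set 2, and of 2.72, 2.37 and 2.61 in the controls. In set 1 every array lay below every control array, whereas 2 set 2 arrays lay above the lowest control array. Set 2 minus set 1 was 0.30 (95% interval -0.02 to 0.63, limma adjusted p = 0.371, exact permutation p = 0.2). Adjusted over both exact tests the p-values were 0.6 for Dmrt3 and 0.4 for Dmrta2. Within each of the 3 slides both targets were higher in set 2 than in set 1, by 0.32, 0.09 and 0.25 for Dmrt3 and by 0.28, 0.60 and 0.04 for Dmrta2. The intervals include 0 for both genes and exclude a remaining level in set 2 more than 0.63 above that of set 1.

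**Figure D1:**
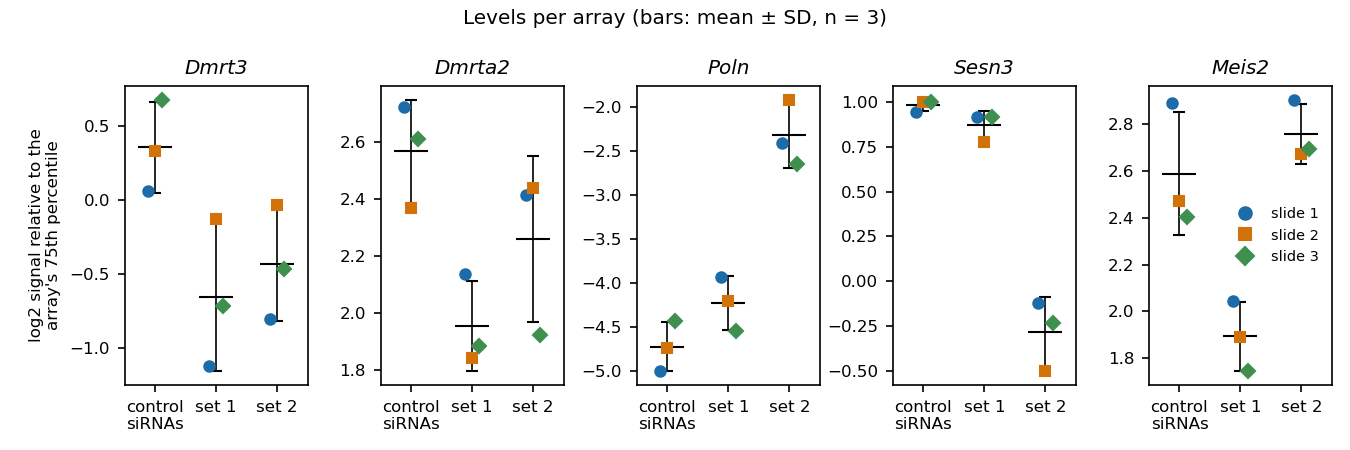
Log2 signal relative to the array's 75th percentile (y axis) in the control siRNA, set 1 and set 2 arrays (x axis) for both targets and 3 genes that differed between the sets; points are arrays, marked by slide, and bars are the mean ± SD of 3 arrays. The sets overlap for Dmrt3 and Dmrta2. Against the controls, at an adjusted p under 0.05 in limma, Poln passed as higher and Sesn3 as lower in set 2 alone. Meis2 passed as lower in set 1 alone. For Poln the control mean lies below the means of both sets.

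Few genes passed the threshold between the sets. Of 15370 genes tested, 37 passed an adjusted p of 0.05 in limma with the slide as a block, which is 0.241% of the genes, with 14 (0.0911%) higher and 23 (0.15%) lower in set 2. At an unadjusted p under 0.05 there were 2235 genes (14.5%), where 768 would be due by chance. In all 37 genes the 3 arrays of a set did not overlap with those of the other set, which held for 13.9% of all genes, and the sign was the same on every slide, which held for 36.4%. Both traits follow largely from the selection, since the genes were picked on these same arrays. The differences of the 37 ran from 0.54 to 1.91 in size with a median size of 0.95, and 15 of them were at least 1, as were 232 of all genes. These calls rested on all arrays: the count was 12 with no replicate block, 0 when the 6 siRNA arrays were fitted alone (1683 genes at an unadjusted p under 0.05), and 0 or 1 when any 1 of the 6 siRNA arrays was left out (1564 to 2318 genes). Without 1 of the other arrays it was 0 (control 1, overexpression 1 or 3), 9 (control 3), 14 (overexpression 2) or 43 (control 2), and with the background corrected by normexp it was 0 (198 genes). All 37 kept their direction in each of the 12 fits that left out 1 array, with adjusted p-values of at most 0.187. Those fits reuse the arrays on which the genes were picked.

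**Figure D2:**
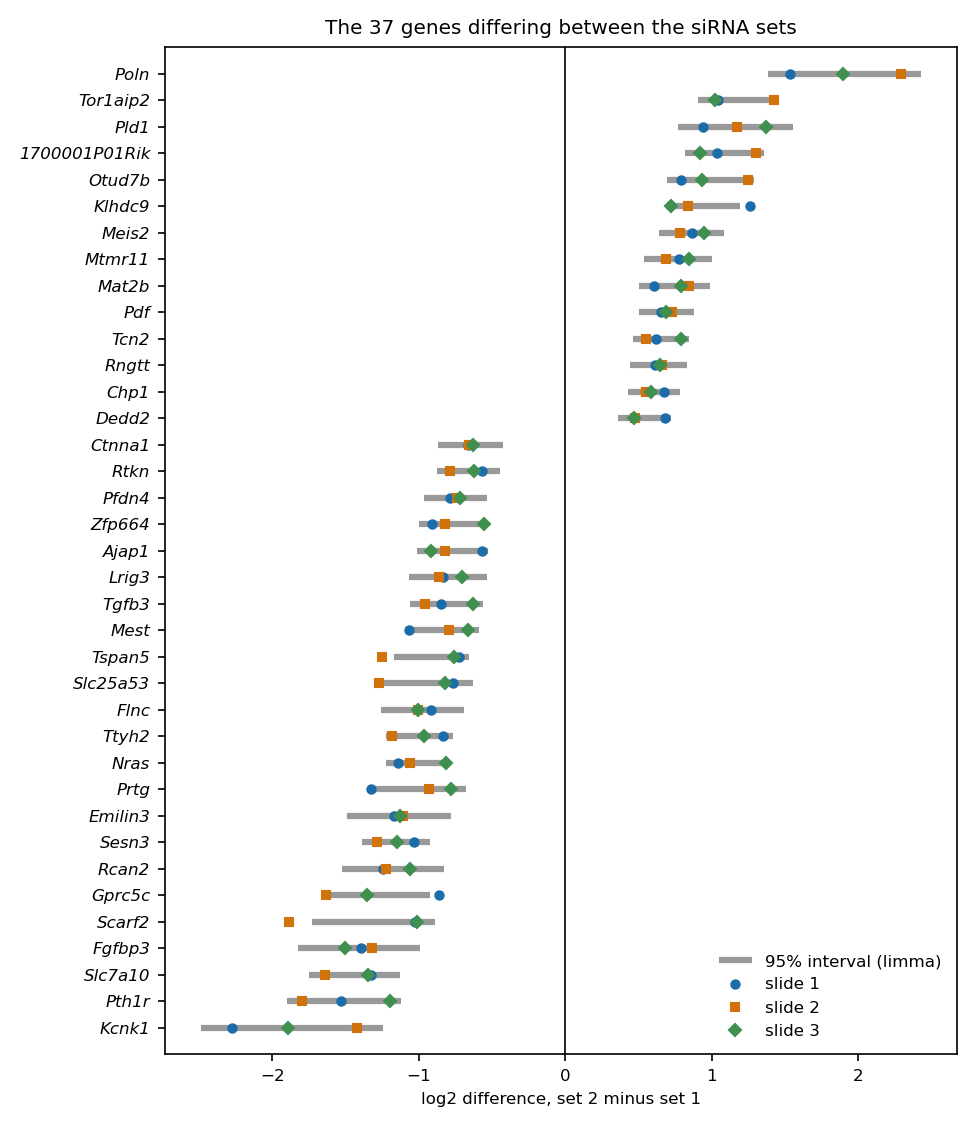
Log2 difference between set 2 and set 1 (x axis) for the 37 genes that passed an adjusted p of 0.05 in limma (y axis, ordered by the difference); points are the differences within each slide and grey bars the 95% intervals. All points of a gene lie on the same side of 0, from Poln at 1.91 to Kcnk1 at -1.86, a gene with 1 of its 3 set 2 arrays well above background.

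Poln, which encodes the translesion DNA polymerase nu, stood highest in set 2. Levels in set 1 were -3.93, -4.21 and -4.55, and those in set 2 -2.40, -1.91 and -2.65, against -5.00, -4.73 and -4.43 in the controls. Every set 2 array exceeded all set 1 and control arrays. The difference was 1.91 ± 0.227 (SE, adjusted p = 0.0343 in limma), a 3.75-fold level. A dimmer probe of the same gene, well above background on 2 of the 6 siRNA arrays, gave 0.67. Among the 12 genes of the list of translesion and repair polymerases, which also holds an accessory subunit and a spindle gene, Poln alone passed the threshold, 9 lay above 0 and the median was 0.12, against 0.02 over all genes. Without set 1 array 2 the list median was -0.04, and without set 2 array 2 it was 0.06. The list was chosen with earlier results of these data known.

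The genes higher in set 2 divided by how each set stood to the controls. In 6 of the 14 genes, set 1 was lower than the controls at adjusted p under 0.05 while set 2 was not past the threshold; in 7, Poln among them, set 2 was higher than the controls while set 1 was not past the threshold; in 1, Klhdc9, neither was. No gene of the 37 was past the threshold against the controls in both sets. Both comparisons share the control arrays.

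Meis2, a homeodomain transcription factor of the TALE class, was among those lower in set 1. Its levels were 2.04, 1.89 and 1.74 in set 1, 2.90, 2.67 and 2.69 in set 2, and 2.89, 2.47 and 2.40 in the controls. The set 1 arrays lay below all others, and the set 2 and control arrays overlapped. Set 2 minus set 1 was 0.86 ± 0.0969 (adjusted p = 0.0295 in limma), with -0.69 for set 1 and 0.17 for set 2 against the controls.

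Rngtt, the enzyme that caps messenger RNA, showed the same arrangement with little spread: 0.27, 0.32 and 0.32 in set 1, 0.88, 0.98 and 0.97 in set 2, and 0.94, 1.02 and 0.90 in the controls. The difference was 0.64, but a second, dimmer probe of Rngtt gave -0.01, so the probes disagree. Mat2b, the regulatory subunit of methionine adenosyltransferase, had 1.92, 1.89 and 1.59 in set 1 against 2.52, 2.74 and 2.38 in set 2. Pdf, the mitochondrial peptide deformylase, had 0.73, 0.64 and 0.63 in set 1 against 1.38, 1.37 and 1.32 in set 2. In both genes the set 1 arrays lay below all set 2 and control arrays, and the differences were 0.75 and 0.69. Chp1, a calcineurin-like calcium-binding protein, differed by 0.60, with 0.21 from its second probe. Otud7b, a deubiquitinase, differed by 0.99, with set 1 at -0.75 against the controls (adjusted p = 0.0486 in limma) and set 2 at 0.23.

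Among the genes higher than the controls in set 2, Tor1aip2, which encodes a torsin-interacting membrane protein of the endoplasmic reticulum, came after Poln. Its levels were -0.14, -0.12 and -0.09 in set 1, 0.90, 1.31 and 0.93 in set 2, and -0.05, 0.26 and 0.24 in the controls. The set 2 arrays lay above all others, at 2.24-fold the level of set 1 (log2 difference 1.16, adjusted p = 0.0193 in limma). The probe of another of its transcripts gave 0.05 and a near-background probe of the same transcript 0.66, so the probes of this gene disagree. Pld1, the phospholipase that releases phosphatidic acid, had -4.25, -4.38 and -4.42 in set 1 and -3.31, -3.21 and -3.05 in set 2. Tcn2, the plasma carrier of vitamin B12, had -0.08, 0.17 and -0.28 in set 1 and 0.54, 0.72 and 0.51 in set 2. Neither gene's sets overlapped, and the differences were 1.16 and 0.65. Mtmr11, a myotubularin-related protein, and Dedd2, a death effector domain protein, differed by 0.77 and 0.54. For Mtmr11 the direction turned to -0.04 when the background was corrected by normexp on the median spot signals.

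Most genes lower in set 2 than in set 1 were also lower in set 2 than in the controls. Of the 23, 13 were lower than the controls in set 2 at adjusted p under 0.05, 4 were higher than the controls in set 1, and 6 passed in neither. Sesn3, a sestrin, which restrains mTORC1 signalling, had levels of 0.91, 0.78 and 0.92 in set 1, of -0.12, -0.50 and -0.23 in set 2, and of 0.94, 1.00 and 1.00 in the controls. Every set 2 array lay about 1 or more below its slide partners, and set 1 lay just under the controls. The difference was -1.16 ± 0.101 (adjusted p = 0.0193 in limma), so the set 2 level was 44.9% of that of set 1.

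Nras, a GTPase of the Ras family, was equally tight: 1.66, 1.57 and 1.34 in set 1, 0.52, 0.51 and 0.53 in set 2, and 1.81, 1.76 and 1.52 in the controls. The set 2 arrays lay below all others and hardly differed among themselves. The difference was -1.01 ± 0.0969 (adjusted p = 0.0193 in limma), and the other probes of Nras gave -1.01 and -0.62, so all 3 probes had the same sign. Rcan2, a regulator of calcineurin, had 1.50, 1.32 and 1.49 in set 1 against 0.26, 0.10 and 0.43 in set 2, with 0.90, 1.49 and 1.16 in the controls. Set 2 was at 44.2% of set 1.

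Gprc5c, an orphan G protein-coupled receptor, was measured by 4 probes, all lower in set 2, by -0.76 to -1.28. Ttyh2, a membrane protein of the tweety family, had 1.54, 2.03 and 1.72 in set 1 against 0.70, 0.84 and 0.76 in set 2, and its second probe gave -1.06. Tspan5, a tetraspanin, had 2.13, 2.81 and 2.42 in set 1 against 1.40, 1.56 and 1.66 in set 2, with -0.99 from its second probe beside -0.91. In each of these genes the sets did not overlap on the probe used for the test. Emilin3, an extracellular matrix glycoprotein, and Slc25a53, a mitochondrial carrier, differed by -1.13 and -0.95. Slc25a53 lies on the X chromosome. Sex-linked genes are given below, and a link of Slc25a53 to embryo sex was not tested.

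A smaller group was higher in set 1 than in the controls, while set 2 stayed near them. Fgfbp3, a secreted protein that binds fibroblast growth factors, had 3.15, 3.11 and 2.80 in set 1, 1.76, 1.79 and 1.29 in set 2, and 1.64, 1.87 and 0.51 in the controls. The set 1 arrays lay above all others, at 2.65-fold the level of set 2 (log2 difference -1.41, adjusted p = 0.0343 in limma). Pth1r, the receptor for parathyroid hormone and its related protein, had -0.09, 0.38 and -0.17 in set 1 and -1.63, -1.42 and -1.37 in set 2, against -1.41, -0.63 and -1.66 in the controls. Here too the set 1 arrays lay above all others, and set 2 minus set 1 was -1.51. Slc7a10, a transporter of small neutral amino acids including D-serine, had -1.75, -1.63 and -2.08 in set 1 and -3.08, -3.27 and -3.43 in set 2. Set 1 exceeded the controls by 1.05 (adjusted p = 0.0264 in limma), whereas set 2 lay at -0.39 from them (adjusted p = 0.177). Tgfb3, a ligand of the transforming growth factor beta family, completes these 4 genes. It is named after its values were seen, outside the 15 with the largest differences, and differed by -0.81.

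In the remaining genes the sets lay on either side of the controls, without either passing the threshold against them. Kcnk1, a potassium channel, had -4.45, -4.76 and -4.70 in set 1 and -6.72, -6.19 and -6.59 in set 2, where only 1 of 3 arrays was well above background, so that the size of its difference is uncertain. The controls lay between, at -5.79, -5.11 and -5.22, and the difference between the sets was -1.86 (adjusted p = 0.0499 in limma). Scarf2, a scavenger receptor, differed by -1.31, Prtg, the receptor protogenin of the early neural tube, by -1.01, and Flnc, an actin cross-linking filamin, by -0.98. Over all 37 genes the control mean lay between the means of the sets in 27.

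**Figure D3:**
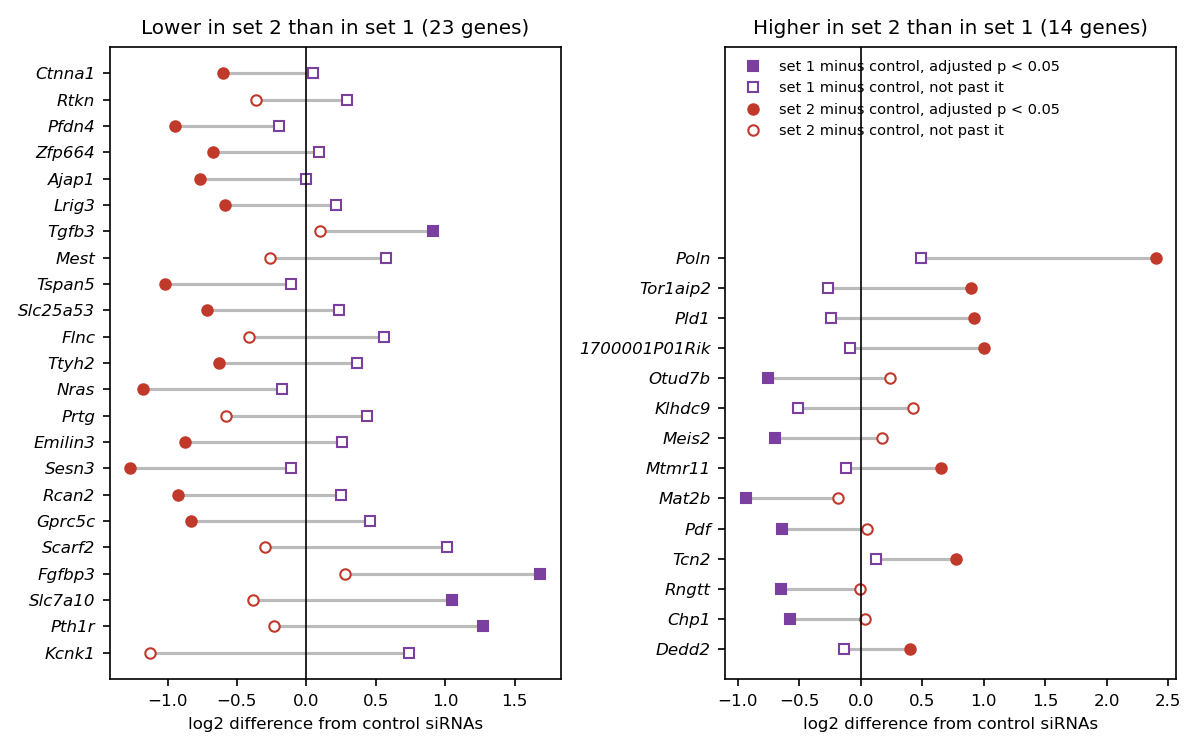
Log2 difference from the control siRNAs (x axis) for set 1 (squares) and set 2 (circles) in the 23 genes lower and the 14 genes higher in set 2; filled symbols passed an adjusted p of 0.05 in limma. No gene has both symbols filled: 10 are filled for set 1 alone, 20 for set 2 alone and 7 for neither.

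The genes that both sets changed were examined for a difference in size between the sets. Against the same 3 control arrays, 115 genes (0.748%) passed in set 1 and 362 (2.36%) in set 2. Of these, 54 (0.351% of the genes tested) passed in both with the same sign, 49 higher and 5 lower than the controls, and 0 passed with opposite signs. That makes 54 of 115 for set 1 and 54 of 362 for set 2. The difference between the sets passed the threshold in 0 of the 54 in limma (0.241% of all genes did), with a smallest adjusted p of 0.0539. In 14 genes its 95% interval excluded 0, which is an unadjusted p under 0.05 and held for 14.5% of all genes. The 54 were picked for passing in both sets with the same sign against the same controls. That choice favours similar changes, so these counts are no independent measure of how alike the sets were. The interval lay within 0.5 of 0 in 31 of them and within 1 of 0 in 50, and the median size of the difference was 0.12.

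Tox, which encodes an HMG-box protein, had the largest mean change. Its levels were -0.79, -1.39 and -1.05 in set 1, -1.14, -1.10 and -1.45 in set 2, and -3.70, -3.74 and -5.14 in the controls. The sets overlapped well above the controls, with a difference of -0.16 (95% interval -0.92 to 0.61). Tacr3, the receptor of neurokinin B, had -2.51, -2.75 and -2.84 in set 1, -3.10, -3.17 and -3.76 in set 2, and -5.02, -5.97 and -5.45 in the controls. Set 2 lay below set 1 on each slide, by -0.65 in the fit (95% interval -1.17 to -0.13, limma adjusted p = 0.243).

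Emilin2, an extracellular matrix glycoprotein, came closest to the threshold. It had -0.95, -0.95 and -1.63 in set 1, -2.27, -2.25 and -2.37 in set 2, and -3.61, -3.03 and -3.78 in the controls. The 3 groups did not overlap, set 2 lying between the controls and set 1, and set 2 minus set 1 was -1.12 (95% interval -1.52 to -0.73, limma adjusted p = 0.0539). Tmem255a, a membrane protein, Myh3, the embryonic myosin heavy chain, and Prss23, a serine protease, had values of -0.55, -0.60 and -0.49 that did not pass. Edn2, an endothelin, and Slc24a4, a sodium, calcium and potassium exchanger, were lower than the controls in both sets, and their differences between sets were 0.22 (95% interval -0.21 to 0.65) and 0.04 (-0.25 to 0.33). Under the normexp correction both of these turned sign, to -0.33 and -0.35.

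**Figure D4:**
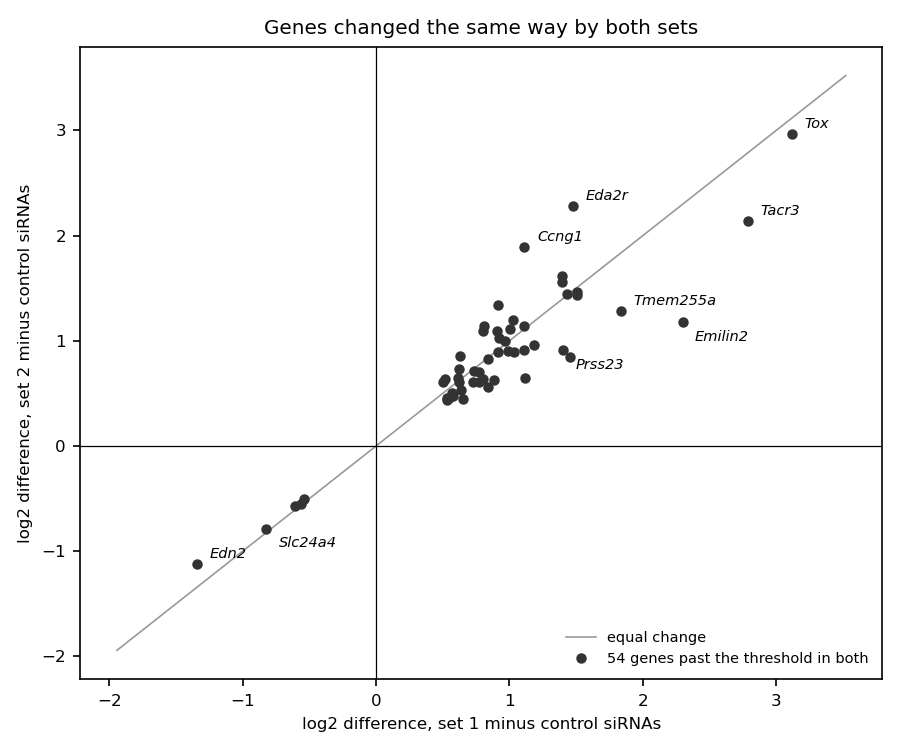
Log2 difference from the control siRNAs for set 1 (x axis) and set 2 (y axis) in the 54 genes past an adjusted p of 0.05 in both, with the line of equal change; both axes use the same 3 control arrays. Emilin2 lies farthest from the line, at 2.30 in set 1 and 1.18 in set 2, and Tox at 3.12 and 2.96 lies near it.

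Gene lists were chosen for the tissue and the treatment, with earlier results of these data known. They were read against all genes, of which 54.4% had a value above 0, with a median of 0.02. Only Poln and Sesn3 of the 351 list genes measured passed the threshold, which 0.241% of all genes passed. Because of how the lists were chosen, the place of these genes in them is no independent finding. Sesn3 belongs to the list of sestrins and FOXO targets, in which 3 of 12 genes lay above 0 with a median of -0.24 (-0.14 without set 2 array 2). Irs2, an adaptor of the insulin receptor, came next in that list with -0.45 (adjusted p = 0.0771 in limma), its sets not overlapping.

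Genes of the p53 response lay higher in set 2. Of 24 genes, 23 were measured, 18 lay above 0, 0 passed the threshold and 9 had an unadjusted p under 0.05 in limma, all higher in set 2 (7.38% of all genes were so). The median was 0.36, with 0.26, 0.31 and 0.32 on the 3 slides, and 0.23 without set 2 array 1. Bbc3, the proapoptotic protein PUMA, had 0.18, -0.17 and -0.03 in set 1 and 0.64, 1.02 and 0.52 in set 2. Phlda3, an inhibitor of Akt signalling, had 0.67, 0.32 and 0.33 in set 1 and 1.30, 1.57 and 0.95 in set 2. In both the sets did not overlap, with differences of 0.74 (adjusted p = 0.0939) and 0.83 (adjusted p = 0.111) in limma. Ccng1, a cyclin under p53 control, and Eda2r, a death-domain receptor, had differences of 0.78 and 0.80, and each was higher than the controls in both sets. Eda2r was well above background on 1 set 1 array and 2 set 2 arrays, and its value turned to -0.39 under normexp. Aen, an apoptosis-enhancing nuclease, had 0.59. Cdkn1a, the cyclin-dependent kinase inhibitor p21, and Mdm2, the ubiquitin ligase for p53, are defining targets of the pathway, and their differences were 0.21 (95% interval -0.37 to 0.79) and 0.02 (-0.21 to 0.24).

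Interferon-stimulated genes and sensors of double-stranded RNA had a list median of 0.95, with 18 of 19 measured genes above 0, 5 at an unadjusted p under 0.05, all higher (7.38% of all genes were so), and 0 past the threshold. Of the 19, 4 were not well above background on any set 1 array, so they were kept only through arrays of other groups, and their place in these counts is not independent of that filter. The 12 genes well above background on all 6 siRNA arrays had a median of 0.69. The values were not alike on the slides: the list median was 2.28 on slide 1, 0.77 on slide 2 and 0.27 on slide 3, and without replicate 1 it was 0.44. Without set 2 array 1 alone it was 0.38, and without set 2 array 3 it was 1.65. It was 0.07 under normexp. RefSeq's promoter windows, from 250 bases before to 50 bases after each start, were read for the whole list, whether or not a gene was measured. The motif was GAAA NN GAAA, with N for any base, the core of the interferon-stimulated response element. On either strand it lay in 12 of 21 windows of the list (57.14%), against 1131 of 32851 windows of all genes (3.443%). The list holds interferon-stimulated genes by choice, so this share is not a result of the arrays. Stretches of 3 of these windows are shown because the genes moved together on slide 1. They come from RefSeq's GRCm38.p6 minus strand, Isg15 at chr4:156200862-156200921, Bst2 at chr8:71537568-71537627 and Cxcl10 at chr5:92349068-92349127, with the bases of every match, overlapping ones joined, in capitals.
Isg15: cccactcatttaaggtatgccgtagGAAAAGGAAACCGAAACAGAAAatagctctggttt
Bst2: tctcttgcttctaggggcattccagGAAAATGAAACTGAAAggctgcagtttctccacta
Cxcl10: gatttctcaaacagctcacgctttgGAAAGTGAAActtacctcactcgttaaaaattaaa

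Isg15, a ubiquitin-like protein, had -1.20, -1.82 and -1.93 in set 1 and 1.09, -1.17 and -1.99 in set 2. The set 2 array of slide 1 stood apart, and the sets overlapped on the others, so that the difference of 0.95 had an interval from -0.59 to 2.50. Bst2, the antiviral protein tetherin, had -3.29, -3.70 and -3.70 in set 1 and -0.36, -2.07 and -3.42 in set 2. Its value fell off in the same order of slides, with a difference of 1.61 (adjusted p = 0.307 in limma). Cxcl10, a chemokine, was not well above background on any set 1 array and had -3.45, -4.04 and -8.91 in set 2, where 2 arrays were. Ifit3, an interferon-induced protein, was likewise well above background on 0 of 3 set 1 and 2 of 3 set 2 arrays, and its value turned to -0.21 under normexp. With the lowest signal well above background in place of the dim set 1 arrays, the set 2 mean was 2.13-fold higher for Cxcl10 and 1.90-fold for Ifit3. These means include set 2 arrays not well above background, such as -8.91 for Cxcl10, so they set no lower limit for each array. Both genes passed the filter only through arrays of other groups than set 1. Eif2ak2, the kinase PKR that double-stranded RNA activates, had a smaller difference of 0.47 (adjusted p = 0.233).

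The machinery that siRNAs use showed small values. Of 14 genes of small RNA processing, 4 lay above 0, 0 passed and the median was -0.07 (-0.02 without set 1 array 1). Ago1 and Ago2, the Argonaute proteins, had -0.23 and -0.31, and Tnrc6b, a GW182 protein of the silencing complex, had 0.43, with adjusted p-values of 0.233, 0.33 and 0.278 in limma.

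Genes of neurogenesis and of signalling at the medial wall lay lower in set 2 without passing the threshold. In the proneural list 2 of 17 genes lay above 0 and 7 had an unadjusted p under 0.05, all lower (7.16% of all genes were so). Its median was -0.38, with -0.30, -0.61 and -0.23 on the slides. Olig3, a basic helix-loop-helix factor of dorsal progenitors, had -2.45, -2.61 and -1.97 in set 1, -5.95, -4.27 and -5.67 in set 2, and -8.01, -6.26 and -7.97 in the controls, where 1 of 3 arrays was well above background. The groups formed 3 steps without overlap, and set 2 was at 12.9% of set 1 (log2 difference -2.95, 95% interval -4.11 to -1.80, adjusted p = 0.068 in limma). Neurod4, a proneural factor, had -1.04, Tal2, a factor of midbrain GABAergic precursors, -0.90, Nhlh2, a neuronal basic helix-loop-helix factor, -0.72, and Dll3, a Notch ligand of newborn neurons, -0.42. Hes5, an effector of Notch signalling, lay the other way at 0.47, with non-overlapping sets. Its list of Notch and radial glia genes did not move with it. There 6 of 14 genes lay above 0 and 0 passed the threshold. The median of that list was -0.03, with -0.10, 0.25 and -0.06 on the slides.

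Of 16 regulators of the ventral telencephalon measured, 5 lay above 0, with a median of -0.15 (-0.22 without set 2 array 1 and -0.27 without set 2 array 3). Olig1 and Olig2, factors of the oligodendrocyte lineage, had -1.77 and -0.77, and in neither did the sets overlap. For Olig2 set 1 was higher than the controls (1.35, adjusted p = 0.0486 in limma), whereas set 2 had 0.57 (adjusted p = 0.228). Of 16 dorsal regulators, 5 lay above 0, with a median of -0.22. Zic1 and Zic2, zinc-finger factors of the medial wall, had -0.66 and -0.50, while Nr2f1, the nuclear receptor COUP-TFI, had 0.60. The highest value of the dorsal list was 0.98. At an unadjusted p under 0.05 in limma, 3 of its genes were higher and 4 lower (7.38% and 7.16% of all genes).

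Among 9 Cajal-Retzius genes, which mark the first-born neurons that leave the hem, 1 lay above 0 and the median was -0.32 (-0.57 without set 1 array 3). Lhx5, a LIM homeodomain factor of these cells, had -0.31, 0.21 and -0.57 in set 1, -1.64, -2.32 and -1.48 in set 2, and -1.63, -0.93 and -1.43 in the controls. Set 1 lay above all other arrays and set 2 overlapped with the controls, with a difference of -1.59 (adjusted p = 0.0744 in limma). Ebf2, a factor of early neurons, had -0.74, and here set 2 was below the controls (-1.16, adjusted p = 0.02). In bulk samples fewer cells of a type and less RNA per cell cannot be told apart. The summed level of the 9 genes, in multiples of the 75th percentile, was 4.56 to 5.71 in set 1, 2.94 to 4.11 in set 2 and 4.37 to 5.32 in the controls.

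The FGF list, ligands and feedback genes, had 2 of 12 genes above 0 and a median of -0.37, with -0.29, -0.69 and -0.27 on the slides, and -0.23 without set 1 array 1. Fgf17, a ligand of the rostral midline, had -0.77. Of the genes that FGF signals induce, Il17rd had -0.78, Dusp6 -0.71, Etv4 -0.64 and Spry1 -0.51, with adjusted p-values of 0.119 to 0.207 in limma. The highest value of the FGF list was 0.42. At an unadjusted p under 0.05 in limma, 1 of its genes was higher and 5 lower (7.38% and 7.16% of all genes). Cortical hem genes had 2 of 12 above 0 and a median of -0.12, but the slides did not share a sign, with medians of 0.11, -0.60 and -0.33. With 1 array left out the hem median ran from -0.38 (without set 2 array 1) to -0.06 (without set 1 array 2), and it was -0.25 without set 1 array 3. Wnt8b and Wnt5a, ligands of the hem, had -0.80 and -0.76. Targets of Wnt and beta-catenin had 2 of 12 above 0 and a median of -0.21 (-0.39 without set 2 array 2 and -0.07 without set 2 array 3), led by Znrf3, a ubiquitin ligase that removes Wnt receptors, at -0.94 and Nkd1, a feedback inhibitor, at -0.54. The BMP list had 4 of 11 above 0 and a median of -0.18 (-0.09 without set 1 array 1 and -0.34 without set 2 array 1). In it Bmp4, a ligand, had -0.95, Id2, an inhibitor of helix-loop-helix factors, -0.75, and Smad6, an inhibitory Smad, -0.36, and Bmp6, a ligand counted with the hem, had -0.91. The highest value of the BMP list was 0.65, with 1 gene higher and 5 lower at an unadjusted p under 0.05 in limma (7.38% and 7.16% of all genes).

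In the choroid plexus and roof plate list 4 of 8 genes lay above 0. Otx2, a homeodomain factor of the choroid plexus, had 0.95, 1.19 and 0.62 in set 1 against 0.22, 0.06 and -0.06 in set 2, while Foxj1, a factor of ciliated cells, lay the other way with -1.43, -1.62 and -1.31 against -0.80, -0.61 and -0.86. The sets did not overlap in either, and the differences of -0.84 and 0.70 had adjusted p-values of 0.152 and 0.139 in limma. Of 20 genes of S phase and licensing, 17 lay above 0 with a median of 0.15, but the slide medians were -0.18, 0.59 and 0.02, and without replicate 2 the median was -0.08. With 1 array left out it ran from -0.08 (without set 2 array 2) to 0.27 (without set 2 array 1). Gins2 and Cdt1, replication factors, had 0.54 and 0.40. Of 16 genes of mitosis, 3 lay above 0 with a median of -0.05, but the slide medians were -0.42, 0.24 and 0.10, so slides 2 and 3 lay the other way. Without set 1 array 1 or set 2 array 1 the median of the mitosis list was 0.05 or 0.12, and without another siRNA array it ran from -0.19 to -0.09. Among its genes were Cenpf, a kinetochore protein, at 0.47 (-0.12 under normexp) and Ccna2, a cyclin, at -0.42. Ldha, lactate dehydrogenase of the hypoxia list, had 6.95, 6.49 and 6.85 in set 1 and 5.76, 5.77 and 6.16 in set 2. The sets did not overlap, and the difference was -0.87 (adjusted p = 0.0757 in limma), the lowest of that list. In it 5 of 10 genes lay above 0, with a median of 0.05. Nefl, a neurofilament, had -0.81, the lowest of the neuron list, where 5 of 13 genes lay above 0. The neuron list had a median of -0.13, with 0.16, -0.38 and -0.28 on the slides. Krt18, a keratin, had -0.98, the lowest of the surface ectoderm list, where 2 of 7 genes lay above 0. That list had a median of -0.15, with -0.18, 0.04 and -0.92 on the slides. Hspa1a, a heat shock protein, had a difference of 1.98, with 4.36, 0.37 and 1.22 on the slides, so most of it came from slide 1. It was the highest of the heat shock list, where 5 of 7 genes lay above 0. That list had a median of 0.18, with 0.13, 0.20 and -0.08 on the slides.

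**Figure D5:**
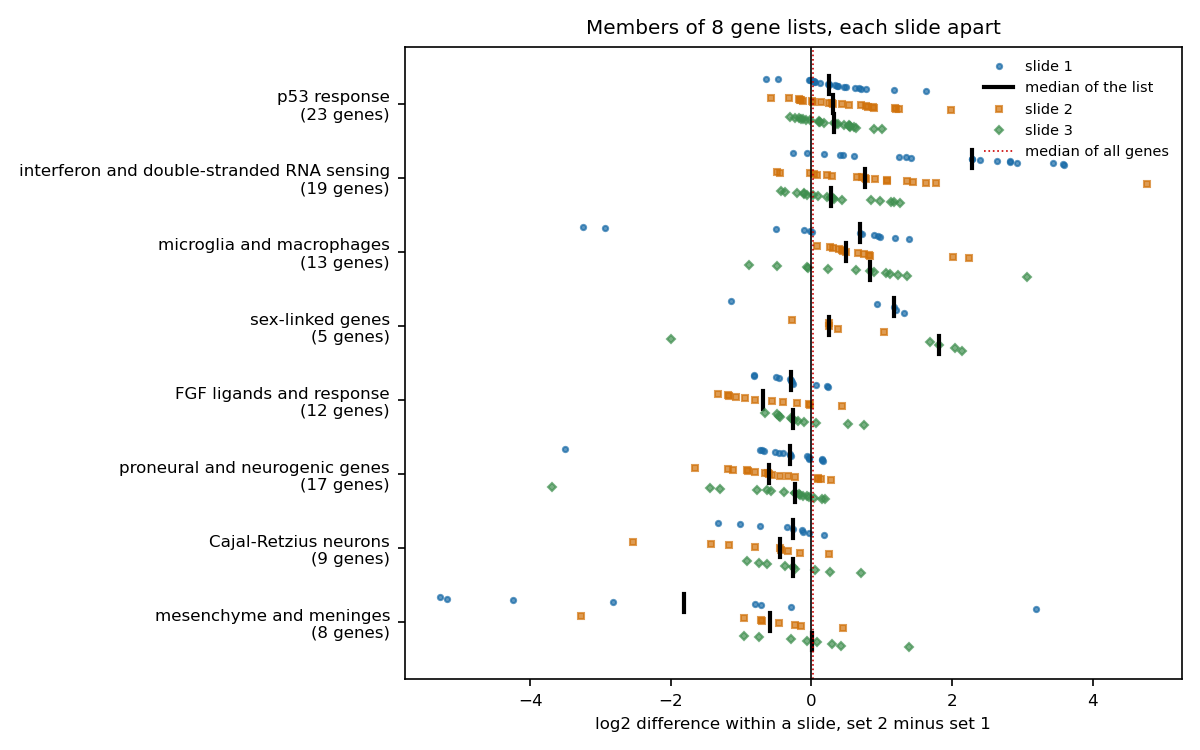
Log2 difference between set 2 and set 1 within a slide (x axis) for the members of 8 gene lists (y axis); each symbol is a gene on a slide, black bars are the list's median on that slide and the dotted line is the median of all genes. The p53, FGF, proneural and Cajal-Retzius medians have the same sign on all 3 slides, the interferon median falls from 2.28 on slide 1 to 0.27 on slide 3, and the mesenchyme median runs from -1.82 to 0.01.

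Markers of other cell types also moved with the sets. Of 13 microglial genes, 10 lay above 0, 6 with an unadjusted p under 0.05, all higher (7.38% of all genes were so). The median was 0.76, with 0.69, 0.49 and 0.83 on the slides and 0.46 without set 1 array 3, but -0.07 under normexp. Against the controls 8 of the 13 passed an adjusted p of 0.05 in set 2 in limma, where 2.36% of all genes did, and 0 in set 1, where 0.748% did. The list medians against the controls were 1.64 in set 2 and 0.75 in set 1, and both use the same control arrays. Aif1, a microglial calcium-binding protein, had -3.76, -3.63 and -3.69 in set 1, -2.37, -2.89 and -2.81 in set 2, and -4.77, -4.35 and -3.85 in the controls. Set 2 lay above all other arrays, by 1.01 over set 1 (adjusted p = 0.111 in limma). Tyrobp, an adaptor of myeloid receptors, had 0.94, Trem2, a receptor that signals through it, 0.95, and Cx3cr1, the fractalkine receptor, 0.91. In the other direction, 3 genes of the list lay below 0, the lowest at -0.71. The complement genes C1qa and C1qb had 0.76 and 0.56, which turned to -0.10 and -0.07 under normexp. The summed level of the list overlapped between the sets, with 11.4 to 26.3 in set 1, 13.2 to 25.2 in set 2 and 13.8 to 24.7 in the controls, a sum made mostly by the bright probe of Itgam, and each of the 13 genes was well above background on at least 1 array of each set. Of 8 endothelial genes 7 lay above 0, with a median of 0.32 (-0.15 under normexp, and 0.17 to 0.53 with 1 array left out, the lowest without set 2 array 3 and the highest without set 2 array 2), and Egfl7, an endothelial secreted protein, had 0.73.

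Mesenchymal and meningeal genes lay lower in set 2, 7 of 8 below 0 with a median of -0.84, and here 1 array stood apart. Col1a1, a collagen of connective tissue, had 0.39, -4.16 and -3.78 in set 1 and -4.89, -5.13 and -4.53 in set 2, and Col3a1 had 0.22, -5.54 and -5.41 against -4.97, -6.00 and -5.48. The set 1 array of slide 1 was the high one in both genes. The summed level of the list was 7.57 on that array, 2.20 and 2.81 on the other set 1 arrays, 1.77 to 2.00 in set 2 and 1.37 to 1.77 in the controls. Without replicate 1 the list median was -0.26, and without that array alone -0.31. On the same array the 8 erythroid genes summed to 22.2, against 2.62 and 6.24 on the other set 1 arrays and 4.49 to 11.7 in set 2, with a list median difference of 0.13 (-0.36 under normexp, and -0.16 without set 1 array 2 to 0.59 without set 1 array 1). Dcn, the proteoglycan decorin, was lower in set 2 on every slide, at 1.13, 0.71 and 1.13 in set 1 and 0.41, 0.56 and 0.18 in set 2.

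Of 5 sex-linked genes, 0 passed the threshold, and the sets did not overlap in 5 (13.9% of all genes did not). Xist, the RNA that silences an X chromosome in female cells, had 1.77, 1.05 and 1.64 in set 1, 0.63, 0.77 and -0.35 in set 2, and 1.49, 0.83 and 1.45 in the controls. On the Y chromosome, Ddx3y had -2.08, -2.18 and -2.55 in set 1, -0.90, -1.15 and -0.86 in set 2, and -1.69, -1.15 and -2.50 in the controls. All 3 set 2 arrays lay below set 1 for Xist and above it for Ddx3y, with differences of -1.14 and 1.30 (adjusted p = 0.17 and 0.181 in limma). Uty, Eif2s3y and Kdm5d, also on the Y chromosome, had 1.12, 1.24 and 1.07, of which Uty and Kdm5d turned to -0.14 and -0.31 under normexp. The list medians were larger on slides 3 and 1, at 1.81 and 1.18, than on slide 2, at 0.25. Over all slides the list median was 1.12, and -0.14 under normexp. The list joins Xist, which lay below 0, with Y-linked genes above 0, so its median does not measure the gap between them. With the genes of the X and Y chromosomes left out, 36 genes differed between the sets. The part of these cell types and of embryo sex in the differences between the siRNA sets was not tested.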

How the data were processed

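Per the file headers, the deposited spot intensity had its background subtracted and spatial trends removed by Agilent Feature Extraction (version 10.5.1.1 in the submitters' processing notes), with no step between arrays. The deposited log2 table has no stated scale, centring or direction. Set against the scanner values scaled to the 75th percentile and centred on each probe's median, its columns correlated at 0.998 or more in the same direction, and their medians ran from -0.131 to 0.0964. The deposited median spot and background intensities served the normexp alternative.

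Control and outlier spots were left out, the array's 75th percentile of log2 signal was subtracted, and spots of a probe were averaged. Probes were named through RefSeq accessions in a GRCm38.p6 gene table (26055 of 39429 probes, 19751 genes). Because the array annotation uses another build, no probe coordinates are given. Probes well above background on at least 3 of 12 arrays were kept, 1 per gene by the highest mean. limma 3.58.1 in R 4.3.3 fitted all 12 arrays with group and slide, leaving 6 residual degrees of freedom, with Benjamini-Hochberg adjustment. Exact tests took the arrays as unpaired and used SciPy 1.17.1. The fit was tested on simulated data. The number of arrays limits the precision.

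Slide equals replicate number. Deviations of same-numbered set 1 and set 2 arrays correlated at 0.401, 0.323 and 0.256, so the numbers pair them; over other pairs of groups the values ran from 0.0199 to 0.6. Named are both targets, up to 15 genes higher and 15 lower with the largest differences past the threshold (clone names left out), list members past it, members with small p or a defining role as values, and up to 16 genes changed by both sets. The members and lists were chosen with earlier results of these data known. Lists are described by counts and medians, with no test.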

Additional observations from a re-analysis of the deposited data

How the results depend on the processing

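The count of 37 genes depended on the choices made. It was 12 with no replicate block, the fit without the pairing by slide, and 12 of the 37 genes passed there. In limma it was 0 with the 6 siRNA arrays alone, with the replicate block (1683 genes at an unadjusted p under 0.05) and without it (1089), and 0 under normexp on the median signals, chosen after seeing the data (198). It was 56 after quantile normalization, 5 with no filter on dim probes, 75 with probes above background on all 12 arrays and 21 with the mean over a gene's probes. With 1 array left out it ran from 0 to 43: 0 without control 1, set 1 array 1 or 3, any set 2 array, or overexpression array 1 or 3, 1 without set 1 array 2, 9 without control 3, 14 without overexpression array 2 and 43 without control 2. Without a whole slide it was 0 (1085 to 2877 at an unadjusted p under 0.05).

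The 54 genes changed by both sets became 16 with no replicate block, 0 under normexp, 7 with no filter, and 0 to 51 with arrays left out. Under normexp the difference reversed for C1qa (-0.10), C1qb (-0.071), Cenpf (-0.12), Eda2r (-0.39), Edn2 (-0.33), Ifit3 (-0.21), Kdm5d (-0.31), Mtmr11 (-0.036), Slc24a4 (-0.35) and Uty (-0.14), and for Mdm2 under detected-probe scaling (-0.0074) and quantile normalization (-0.032). Values near 0 crossed it with arrays left out: Cdkn1a -0.088 to 0.50, Mdm2 -0.061 to 0.11, Slc24a4 -0.085 to 0.13 and Tox -0.38 to 0.12. Dmrt3 and Dmrta2 kept their sign, at 0.13 to 0.37 and 0.18 to 0.44. The cause of these changes was not tested.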
